A study of Mus musculus with 6 samples.

Results

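The p53 pathway was examined in mouse embryonic stem (ES) cells, line VGB6, through 32 genes: Trp53, which encodes p53, and 31 genes that regulate it or are known targets of it. They were chosen by name from knowledge of the pathway, with earlier results of these data known. They make up 32 of the 25116 genes that hold at least 1 intron of the deposited tables. RNA was measured in 6 libraries, 3 of wild-type cells and 3 of ZRSR2 knockout cells, made from polyA-selected RNA. The labels give no treatment, no age of the cells, no strain, and neither the number of clones nor the way the knockout was made, and they do not state whether libraries within a group are of separate cultures. The p-values below therefore measure the spread between these libraries, which may be technical. Each library has counts for 219945 introns of reads spliced across the intron and of unspliced reads at its ends. The level of a gene is the sum of its spliced reads over its listed introns, expressed as CPM, the spliced reads of the gene per 1000000 spliced reads of the library. Values are given in the order wild-type replicates 2, 3 and 5, then knockout replicates 2, 3 and 5. These numbers follow a letter P in the sample titles, and what P stands for is not stated.

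p53 is a transcription factor that is kept at a low level by the ubiquitin ligase MDM2 and held inactive by the MDM2 relative MDM4. After DNA damage and other stress it accumulates, binds DNA as a tetramer and raises genes that stop the cell cycle, repair DNA or start apoptosis, and MDM2 is among these targets, which closes a feedback loop. Mouse ES cells are known for abundant p53 RNA and protein. ZRSR2 is a splicing factor that recognizes the 3' splice site of minor, U12-type introns, and the comparison asks whether its loss changed the level or the splicing of these genes.

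The libraries held between 19801687 and 63623214 spliced reads, with wild-type replicate 2 the smallest, and their pooled share of unspliced signal was 1.56% to 1.89%. Zrsr2, the targeted gene (chrX:163932594-163958666), had 660, 2190 and 2129 spliced reads in wild type against 33, 12 and 0 in the knockout, a level of 35.2 ± 3.16 against 0.305 ± 0.275 CPM (SD, n = 3 each), so every library matched its label. The estimated log2 change of −6.70 (SE 0.585) had an edgeR adjusted p of 0.0213, and leaving out a library gave an adjusted p of 0.142 (wild-type replicate 2), 0.412 (knockout replicate 3) or 0.0854 (wild-type replicate 5). The summed level of 11 measured ES cell markers was 2090 to 3090 in wild type against 2910 to 3080 in the knockout. That of 9 measured fibroblast or feeder markers was 345, 174 and 102 in wild type against 445, 259 and 43.6 in the knockout, so it differed widely within both groups. In these bulk samples, fewer cells of a type and less RNA per cell cannot be told apart.

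p53 binds a consensus element of 20 bases, made of a pair of half-sites of 10 bases each. Promoter sequence, from 250 bases before to 50 bases after a transcript start, was found for 24 of the 32 genes in RefSeq (GRCm38.p6). The p53 consensus element with no spacer, which reads alike on both strands, was present with at most 2 mismatches in promoters of 5 of these 24 genes, and of 254 of all 27025 genes with a promoter entry (0.94%; 0.798% of 32851 promoters). With at most 1 mismatch the figures were 4 of the 24 genes and 0.107% of all genes (0.0883% of promoters). The 5 stretches are shown because they are the kind of DNA through which p53 is known to act. They are written 5′ to 3′ in the direction of transcription with the matching 20 bases in capitals, and only the match is shown for Gtse1 and Rps27l, where it lies inside the annotated gene span.
Cdkn1a: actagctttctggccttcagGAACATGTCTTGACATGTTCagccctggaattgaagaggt
Ccng1: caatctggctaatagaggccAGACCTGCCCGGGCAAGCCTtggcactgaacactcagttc
Gtse1: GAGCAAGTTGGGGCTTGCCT
Rps27l: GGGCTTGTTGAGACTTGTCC
Ckap2: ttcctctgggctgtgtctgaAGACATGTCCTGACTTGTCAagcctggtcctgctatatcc
These lie at chr17:29090908-29090967 (plus strand), chr11:40755442-40755501 (minus), chr15:85859945-85859964 (plus), chr9:66946296-66946315 (plus) and chr8:22185983-22186042 (minus). The element started 51 bases before the upstream transcript start of Cdkn1a, 195 before the start of Ccng1, 117 before a start of Rps27l and 203 before that of Ckap2, and in Gtse1 it spanned a start. The Ckap2 element has 2 mismatches and each of the others 1. A match is a description of the sequence and not a measured binding site, and an element outside these windows would not have been found.

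**Figure D1:**
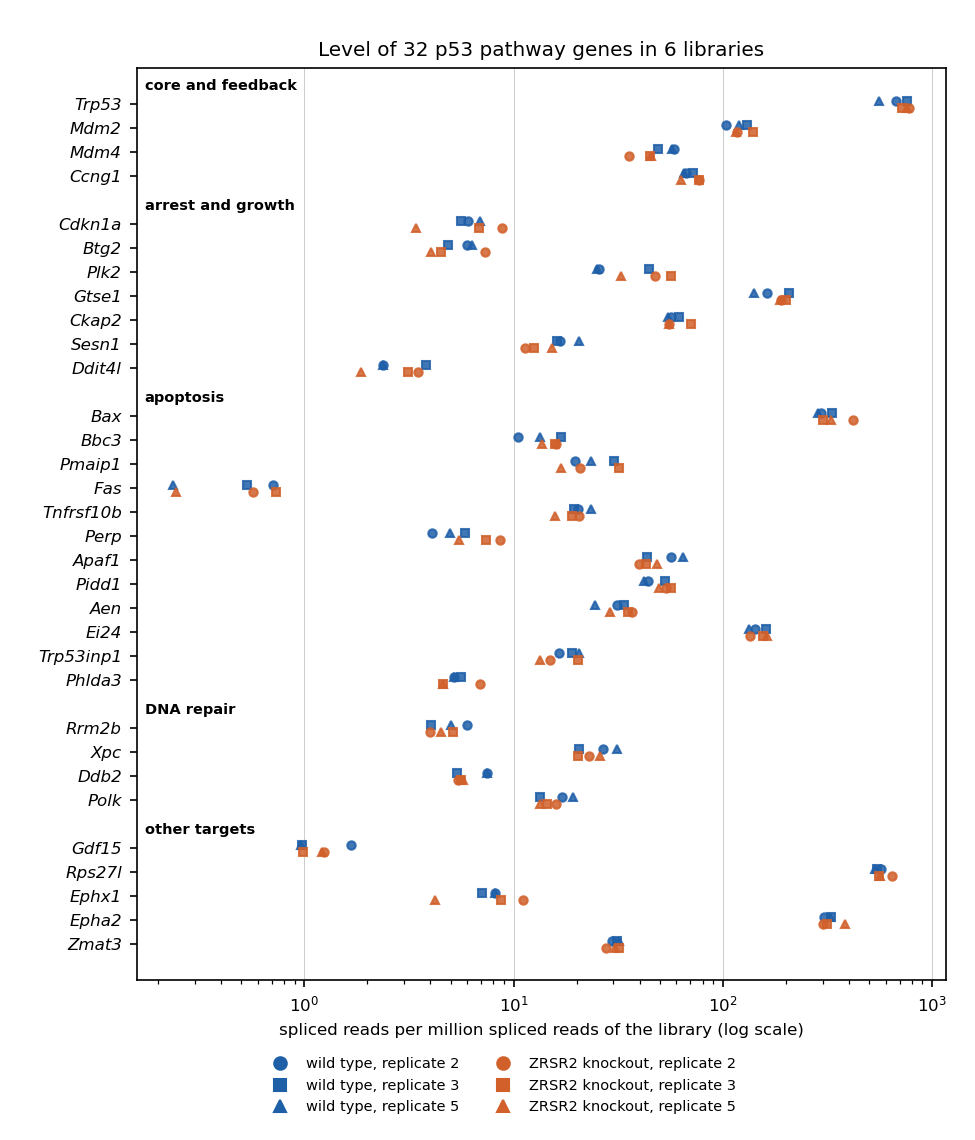
Level of each of the 32 genes in the 6 libraries, as CPM on a log scale, with 1 point per library, blue for wild type and orange for ZRSR2 knockout. The points of both groups overlap for all genes but Mdm4 and Sesn1, whose 3 knockout points lie below the 3 wild-type points.

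All 32 genes passed the filter on low counts, and none passed edgeR's adjusted threshold of 0.05 (smallest adjusted p = 0.485), where 0.0177% of all 16946 genes tested did. Estimates were higher in the knockout for 20 genes and lower for 12, with a median log2 change of 0.07, against −0.01 over all genes tested. An unadjusted p under 0.05 was found for 3 genes, Perp with a higher level and Mdm4 and Sesn1 with a lower one, where 9.94% of all genes tested had such a p (4% higher and 5.94% lower). The groups did not overlap for 2 of the 32 genes, again Mdm4 and Sesn1, both lower in the knockout. Among all genes tested this held for 15.3%, 8.58% with the knockout lower and 6.69% with it higher, so the share among the p53 genes was no larger than the background. DESeq2 called 0 of the 32 genes, where it called 1.32% of 16000 genes. It gave 4 an unadjusted p under 0.05, the same 3 and Plk2, where 2074 of all 23869 genes had such a p. In edgeR, the count at an unadjusted p under 0.05 was 8 without wild-type replicate 3, where 3473 of all 16957 genes tested had such a p. Plk2, Gtse1, Pidd1, Apaf1 and Trp53 joined there (smallest edgeR adjusted p = 0.103). The count was 4 without knockout replicate 5 (1378 of all 17998) and 1 without knockout replicate 3 (1111 of all 17893). It was 0 without wild-type replicate 2 (1043 of all 17944), knockout replicate 2 (1618 of all 16918) or wild-type replicate 5 (877 of all 16948). The median of the 32 genes was 0.16 without wild-type replicate 3 and 0.01 without wild-type replicate 5.

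**Figure D2:**
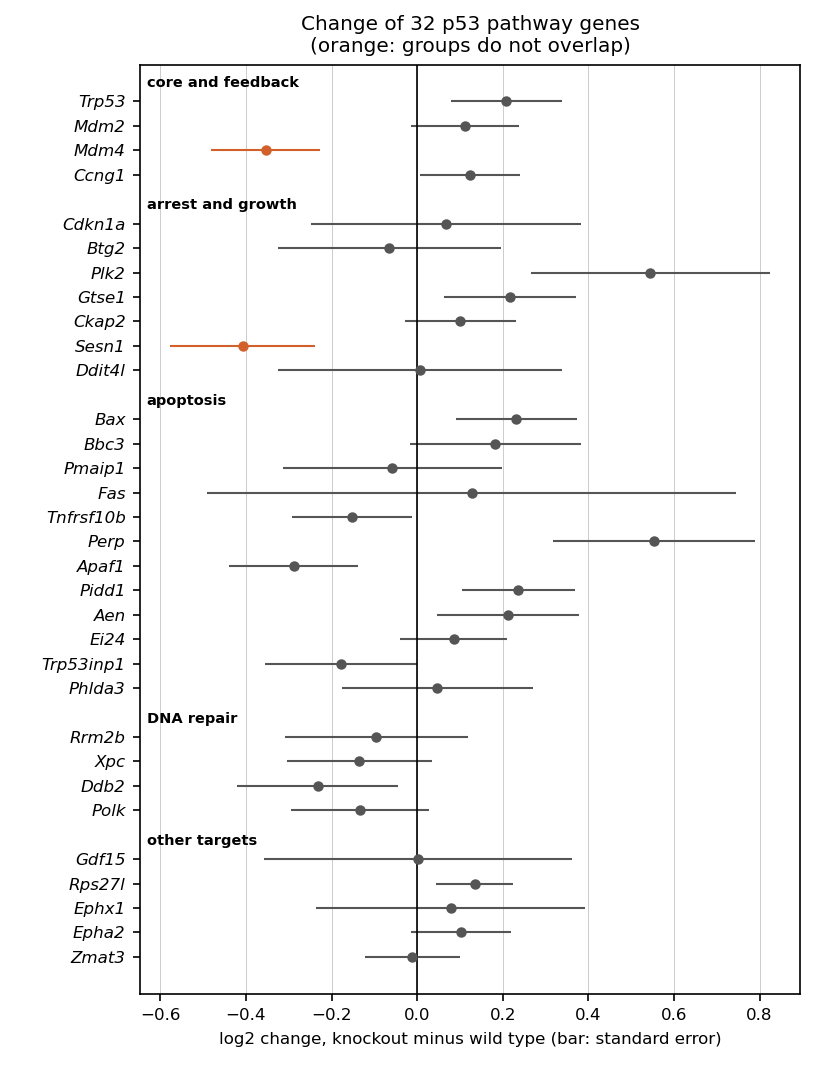
Log2 change of each of the 32 genes, knockout minus wild type, from edgeR, with bars of 1 standard error; orange marks genes whose groups do not overlap. Estimates run from −0.41 for Sesn1 to 0.55 for Perp, and none passed the adjusted threshold.

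Of the core and feedback genes, Trp53, Mdm2 and Ccng1 had estimates above 0 and Mdm4 below it, with a median log2 change of 0.12. Trp53 (chr11:69580348-69591873, 10 listed introns) had 676, 757 and 559 CPM in wild type against 776, 715 and 756 in the knockout. Wild-type replicate 5 was the lowest library, and wild-type replicate 3 lay among the knockout ones. The estimated log2 change of 0.21 (SE 0.13) had an edgeR adjusted p of 0.572, and was 0.08 without wild-type replicate 5 and 0.34 without wild-type replicate 3. Per listed intron, the wild-type mean of Trp53 was 66.4 CPM, the second of the 32 genes after Rps27l (110.0) and just above Bax (61.0). Mdm2 (chr10:117688875-117710758), the ligase that marks p53 for degradation and a p53 target itself, was at 103, 130 and 119 in wild type against 117, 139 and 116 in the knockout. Wild-type replicate 2 was the lowest and knockout replicate 3 the highest library, and the other 4 lay between them, with a log2 change of 0.11 (SE 0.13, edgeR adjusted p = 0.753). Ccng1, which encodes cyclin G1, a p53 target that acts on MDM2, had a mean of 68.0 ± 3.75 in wild type against 72.3 ± 8.16 in the knockout (SD, n = 3 each), with a log2 change of 0.12 and an edgeR adjusted p of 0.705.

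Mdm4 (chr1:132986105-133030587), the MDM2 relative that binds the p53 activation domain, was at 58.3, 49.2 and 57.4 CPM in wild type against 35.5, 44.7 and 45.2 in the knockout. All 3 knockout libraries lay below all 3 wild-type ones, the nearest being knockout replicate 5 and wild-type replicate 3. The log2 change was −0.35 (SE 0.13), with an unadjusted p of 0.0234 and an edgeR adjusted p of 0.485. Mdm4 was lower in the knockout mean at each of its 12 listed introns, and the ratio of knockout to wild-type mean ran from 0.672 to 0.834. The introns share transcripts, and some share reads, so they are not independent. Their sum is the gene level already found apart, so their direction is no separate support, and the shares of all introns below are for scale only. The groups were apart at 5 of the 12 introns, where they were apart with the knockout lower at 10.1%, and higher at 5.12%, of all 95371 introns with at least 20 reads in every library. At chr1:133012714-133018776, for example, 5.15, 4.88 and 4.73 CPM in wild type stood against 3.39, 3.44 and 3.61 in the knockout. At the first listed intron (chr1:133019431-133025247) the groups overlapped, with 4.29, 3.09 and 4.40 in wild type against 3.04, 2.99 and 3.58 in the knockout.

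**Figure D3:**
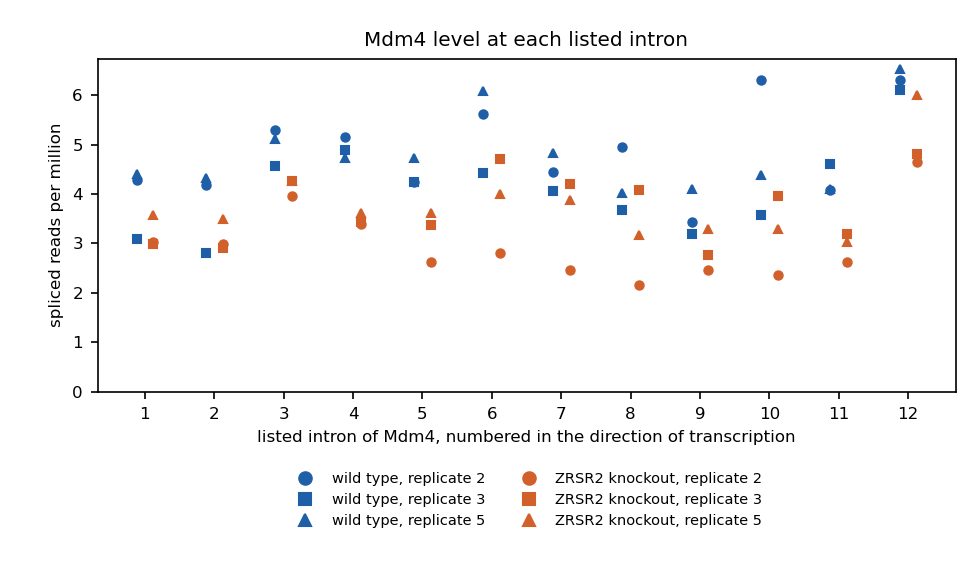
CPM of spliced reads at each of the 12 listed introns of Mdm4, numbered in the direction of transcription, with 1 point per library. The knockout mean is below the wild-type mean at every intron, and the groups are apart at 5.

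Of the 7 genes of cell cycle arrest and growth control, 5 had estimates above 0 and 2 below, with a median log2 change of 0.07 that turned to −0.18 without knockout replicate 2. Cdkn1a (chr17:29090979-29100722, 1 listed intron) encodes p21, the inhibitor of cyclin-dependent kinases through which p53 arrests cells in G1. With 1 listed intron, its wild-type mean of 6.21 CPM per intron lay between those of Mdm2 (10.7) and Mdm4 (4.58). Its libraries were at 6.06, 5.63 and 6.93 CPM in wild type against 8.76, 6.82 and 3.42 in the knockout. The knockout libraries held both the highest and the lowest value, and the estimated log2 change of 0.07 (SE 0.31) had an edgeR adjusted p of 0.947. It turned to −0.25 without knockout replicate 2. Within the knockout, the order of the libraries was that of the summed fibroblast markers (445, 259 and 43.6) and of 7 trophoblast markers (283, 166 and 97.4). It was not that of the summed ES cell (2910, 3080 and 2980), extraembryonic endoderm (132, 152 and 102) or neural markers (48.0, 49.6 and 47.0). In wild type, Cdkn1a followed neither the fibroblast sum (345, 174 and 102) nor the trophoblast sum (125, 161 and 216). In all, 11 of the 32 genes (34.4%) had the knockout order of Cdkn1a, against 19.4% of all genes tested. They were Ccng1, Cdkn1a, Btg2, Ddit4l, Bbc3, Tnfrsf10b, Perp, Aen, Phlda3, Polk and Ephx1. The order was read from these same data and Cdkn1a is itself among the 11, so these shares are a description and not a test. The knockout order is also that of rising P numbers in the sample titles, whose meaning is not stated. With rising P number the fibroblast sum fell in both groups, whereas the trophoblast sum rose in wild type. The parts of the markers and of the P number in the spread cannot be told apart here and were not tested.

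Sesn1 (chr10:41810574-41908436) encodes sestrin 1, a stress protein that restrains the growth kinase mTORC1. It was at 16.6, 16.1 and 20.5 CPM in wild type against 11.3, 12.5 and 15.2 in the knockout. The groups did not overlap, although knockout replicate 5 came close to wild-type replicate 3. The log2 change was −0.41 (SE 0.17), with an unadjusted p of 0.0416 and an edgeR adjusted p of 0.498. Gtse1 (chr15:85859691-85876573), whose product binds p53 and takes it out of the nucleus in G2, was at 163, 207 and 140 in wild type against 191, 201 and 188 in the knockout. Wild-type replicates gave both the highest and the lowest of these values, and its log2 change reached 0.22 (SE 0.15, edgeR adjusted p = 0.609). Ckap2 (chr8:22168149-22185819), which encodes a protein of the mitotic spindle, was at 56.7, 61.8 and 54.5 in wild type against 55.4, 70.7 and 55.2 in the knockout. Apart from knockout replicate 3 the libraries were alike, and the log2 change of 0.10 (SE 0.13, edgeR adjusted p = 0.778) was −0.01 without that library. The kinase gene Plk2 was at 31.6 ± 11.1 in wild type against 45.5 ± 12.1 in the knockout (SD, n = 3 each), a log2 change of 0.54 with SE 0.28 and an edgeR adjusted p of 0.518. Its wild-type replicate 3 (44.4) lay between the knockout libraries. The antiproliferative gene Btg2 was at 5.72 ± 0.764 against 5.29 ± 1.79, from 1 listed intron. Ddit4l, whose product restrains mTORC1, was at 2.85 ± 0.823 against 2.82 ± 0.849, from 2 listed introns.

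The 12 apoptosis genes had 8 estimates above 0 and 4 below, with a median log2 change of 0.11 and no pair of groups apart. Bax (chr7:45461695-45466903), which encodes a protein that opens the outer mitochondrial membrane, was at 296, 334 and 285 CPM in wild type against 418, 303 and 328 in the knockout. Only knockout replicate 2 stood above all wild-type libraries, and the estimated log2 change of 0.23 (SE 0.14) had an edgeR adjusted p of 0.565. Ei24 (chr9:36779153-36797334), which encodes a membrane protein of the endoplasmic reticulum, was at 143, 161 and 133 in wild type against 134, 155 and 163 in the knockout. The ranges were nearly the same, and the estimated log2 change of 0.09 (SE 0.12) had an edgeR adjusted p of 0.811. Perp (chr10:18845071-18857073) encodes a membrane protein of cell junctions that is needed for apoptosis in some cells. It was at 4.09, 5.84 and 4.97 in wild type against 8.58, 7.39 and 5.49 in the knockout. Knockout replicate 5 lay below wild-type replicate 3, so the groups overlapped. The log2 change of 0.55 (SE 0.24) had an unadjusted p of 0.0465 and an edgeR adjusted p of 0.498, on 81 to 531 spliced reads per library. In the knockout, Perp was among the genes in the order of the summed fibroblast and trophoblast markers, which it did not follow in wild type, and their part in the result was not tested.

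Among the other apoptosis genes, the BH3-only genes Bbc3, which encodes PUMA, and Pmaip1, which encodes NOXA, had mean levels of 13.5 ± 3.13 and 24.5 ± 5.46 in wild type against 15.1 ± 1.30 and 23.1 ± 7.80 in the knockout (SD, n = 3 each). Apaf1, the scaffold of the apoptosome, was at 55.0 ± 10.6 against 43.7 ± 4.49, a log2 change of −0.29 with SE 0.15 and an edgeR adjusted p of 0.521. Pidd1, which encodes the scaffold of the PIDDosome, was at 46.2 ± 5.84 against 53.2 ± 3.43 (log2 change 0.24, SE 0.13, edgeR adjusted p = 0.541), and the nuclease gene Aen at 29.8 ± 4.88 against 33.7 ± 4.14. The death receptor genes differed widely in level. Per listed intron, the wild-type mean of Tnfrsf10b was 3.01 CPM and that of Fas 0.0492, the lowest of the 32 genes. Fas had only 9 to 35 spliced reads per library, and its log2 change of 0.13 carried an SE of 0.62, so no difference was detectable at this depth. Trp53inp1 and Phlda3 had log2 changes of −0.18 and 0.05.

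The 4 DNA repair genes all had estimates below 0, with a median log2 change of −0.14 and a range of −0.23 to −0.10. In all 4 the groups overlapped, and the smallest edgeR adjusted p was 0.653. Xpc (chr6:91489305-91515888), which encodes the sensor of DNA lesions in nucleotide excision repair, was at 26.8, 20.5 and 31.2 CPM in wild type against 22.9, 20.4 and 25.9 in the knockout. Polk (chr13:96480687-96542579), which encodes the translesion DNA polymerase kappa, was at 17.1, 13.3 and 19.3 in wild type against 16.0, 14.5 and 13.4 in the knockout. In both genes wild-type replicate 3 was the lowest wild-type library. It lay within the knockout range in Xpc and just below all knockout libraries in Polk. The log2 changes were −0.14 (SE 0.17, edgeR adjusted p = 0.771) for Xpc and −0.13 (SE 0.16, edgeR adjusted p = 0.766) for Polk. Ddb2, which encodes a damage-binding subunit of a ubiquitin ligase, was at 6.76 ± 1.20 against 5.58 ± 0.143 (SD, n = 3 each). Rrm2b, which encodes the p53-inducible subunit of ribonucleotide reductase, was at 4.99 ± 0.974 against 4.52 ± 0.579.

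Of the other 5 targets, 4 had estimates above 0 and Zmat3 was at −0.01, with a median of 0.08 that turned to −0.02 without knockout replicate 5. Rps27l (chr9:66944624-66949522), which encodes a relative of the ribosomal protein S27 that binds MDM2, was at 568, 546 and 535 CPM in wild type against 643, 556 and 564 in the knockout. Knockout replicate 2 was above all wild-type libraries and the other knockout libraries lay among them. Its log2 change of 0.14 had the smallest SE of the 32 genes (0.09, edgeR adjusted p = 0.590). Reads of Rps27l could be split with the near-identical gene Rps27 in ways the sources do not state. Epha2 (chr4:141301221-141329384), an ephrin receptor gene, was at 303, 331 and 324 in wild type against 303, 315 and 383 in the knockout. Only knockout replicate 5 stood out, and the log2 change of 0.10 (SE 0.12, edgeR adjusted p = 0.755) was −0.02 without that library. Ephx1, an epoxide hydrolase gene, was at 8.18, 7.06 and 8.17 in wild type against 11.1, 8.70 and 4.23 in the knockout, in the knockout again in the order of both marker sums. The stress cytokine gene Gdf15 had 31 to 77 spliced reads per library and a log2 change of 0.00 with SE 0.36. Zmat3, which encodes an RNA-binding zinc finger protein, was at 30.9 ± 1.24 against 29.9 ± 2.17 (SD, n = 3 each). The 5 genes with a p53 element shown above, namely Cdkn1a, Ccng1, Gtse1, Rps27l and Ckap2, had log2 changes of 0.07, 0.12, 0.22, 0.14 and 0.10, and none passed the threshold.

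The genes around the pathway were read from 6 lists, and edgeR called none of their genes. DESeq2 called none of them either. Of 12 genes of damage kinases and sensors, 5 had higher and 7 lower estimates (median −0.07), and Mdc1 alone had an unadjusted p under 0.05. Mdc1, an adaptor at DNA breaks, was at 124, 118 and 125 CPM in wild type against 94.9, 101 and 106 in the knockout. The groups were apart, with a log2 change of −0.24 (SE 0.09, edgeR adjusted p = 0.485). Of 17 tested modifiers and partners of p53, 8 were higher and 9 lower (median −0.01). The 2 with an unadjusted p under 0.05 were both higher: the ubiquitin ligase gene Rchy1, also called Pirh2 (0.32, SE 0.12), and the histone chaperone gene Daxx (0.36, SE 0.15), with edgeR adjusted p of 0.488 and 0.496. Daxx was at 84.2, 104 and 73.4 in wild type against 109, 110 and 110 in the knockout, so its knockout libraries lay close together above a wide wild-type range.

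Of 10 ribosomal protein and nucleolar genes whose products bind MDM2, 6 were higher and 4 lower (median 0.02), with no unadjusted p under 0.05 by edgeR or DESeq2. The highest summed levels were those of the nucleolar chaperone gene Npm1 (log2 change 0.17, SE 0.11) and the ribosomal protein gene Rpl5 (0.02, SE 0.07, and −0.02 when scaled by library size alone). Per listed intron, the wild-type mean of Rpl23 (398 CPM) lay between those of Npm1 (514) and Rpl5 (327). Of 26 tested further p53 targets, 17 were higher and 9 lower (median 0.11). Gadd45a, a growth arrest gene induced by DNA damage, was at 23.2, 28.9 and 27.03 in wild type against 31.5, 40.6 and 34.6 in the knockout. The groups were apart, and the log2 change was 0.46 (SE 0.14), with an unadjusted p of 0.0122 and an edgeR adjusted p of 0.469. Pmm1, a phosphomannomutase gene, was the other gene of this list with an unadjusted p under 0.05 (0.34, SE 0.14, edgeR adjusted p = 0.494).

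Of 14 tested apoptosis executors, 10 were higher and 4 lower (median 0.07). Casp9, the initiator caspase that APAF1 activates, was at 14.5, 9.60 and 16.9 in wild type against 8.47, 7.96 and 8.43 in the knockout. The knockout libraries were close together below all wild-type ones. The log2 change was −0.67 (SE 0.21), with an unadjusted p of 0.0114 and an edgeR adjusted p of 0.469. Of 16 cell cycle genes that p53 is known to lower through the DREAM complex, 6 were higher and 10 lower (median −0.02). Cdc20, an activator of the anaphase-promoting complex, was at 341, 400 and 307 in wild type against 431, 426 and 434 in the knockout, apart and higher, with a log2 change of 0.34 (SE 0.12, edgeR adjusted p = 0.485). Across these 6 lists 7 of 95 genes tested (7.37%) had an unadjusted p under 0.05, the same number by DESeq2, against the 9.94% of all genes tested, so their share was below the background. The groups were apart for 8 of the 95 genes, where they were apart for 15.3% of all genes tested. The list genes given as apart were named for a small unadjusted p, so this adds no support. The listed genes Rap2b, Sfn, Bcl2 and Fadd were not analysed here, and Trp63 did not pass the filter on low counts.

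Splicing was read from the MSI, the deposited percent of unspliced signal at an intron, which equals 100 × (A1 + A2) / (A1 + A2 + 2 × Exon) in all 1319670 values, where A1 and A2 count reads at the ends of the intron and Exon the reads spliced across it. Of 249 listed introns of the 32 genes, 218 in 31 genes had at least 20 reads in every library, and Fas had none. Their wild-type MSI had a median of 1.52%, against 1.05% over all 95371 introns as well covered. It was above 10% in 18 of them (8.26%, against 3.94% of all). Of these, 9 were introns of Pidd1 alone and 1 was the outer intron of Pmaip1 described below, so the share was not spread evenly over the genes. Pooled over the 218 introns, MSI was 1.98%, 2.21% and 2.02% in wild type against 1.90%, 2.46% and 2.08% in the knockout. The knockout held both the lowest and the highest library, and the difference of 0.0727 percentage points had a two-sided exact permutation p of 0.8. The smallest p that 3 against 3 allow is 0.1. By class, the wild-type and knockout means were 1.71% and 1.52% for core and feedback genes, 1.93% and 2.03% for arrest and growth, 3.97% and 4.29% for apoptosis, 2.55% and 2.65% for DNA repair, and 1.02% and 1.16% for the other targets. After adjustment over these 6 comparisons every exact permutation p was 0.8.

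In the edgeR test of unspliced against spliced reads, none of the 218 introns passed, where 0.0273% of all introns tested did. An unadjusted p under 0.05 was found for 5 (2 higher, 3 lower), where 4.14% of all introns tested had such a p. On log2 ratios, limma called 0 and gave 4 such introns, against 4257 of all 95371. Each edgeR adjusted p was 1.0. The intron chr7:16312414-16313626 of Bbc3 had an MSI of 1.82%, 3.12% and 3.87% in wild type against 1.03%, 1.31% and 0.366% in the knockout. The groups did not overlap, which with the knockout lower held for 4.01% of all introns tested, and the unspliced reads were few, 1, 11 and 14 in wild type against 4, 3 and 1 in the knockout. Its log2 odds change was −1.88 (SE 0.73, unadjusted p = 0.00975). A pair of overlapping introns of Rps27l that share an end (chr9:66947697-66949328 and chr9:66948717-66949328) had log2 odds changes of 1.67 and 1.0 (SE 0.61 and 0.51), with at most 11 unspliced reads in a library against 2261 to 7851 spliced ones, and an MSI of at most 0.159%. A short Trp53 intron (chr11:69588547-69588625) had 5, 31 and 36 unspliced reads in wild type against 10, 14 and 16 in the knockout, a log2 odds change of −0.84 (SE 0.38). For the fifth, chr10:18853677-18855649 of Perp, 4 unspliced reads were seen, all in wild-type replicate 5.

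Mdm2 had its highest MSI at intron 1 (chr10:117710028-117710551, minus strand), the intron that holds the p53-responsive promoter P2 of this gene. Transcripts from P2 begin inside intron 1 and run into exon 2, and a read that crosses the start of exon 2 from such a transcript cannot be told apart here from one of unspliced RNA. Unspliced reads on the exon 2 side numbered 70, 214 and 272 in wild type against 231, 108 and 123 in the knockout. On the exon 1 side there were 0, 3 and 0 in wild type against 4, 2 and 2 in the knockout, so nearly all unspliced signal of this intron lay at its 3' end in all 6 libraries. Reads spliced from exon 1 to exon 2 numbered 71, 411 and 403 in wild type against 306, 200 and 251 in the knockout. The share of reads entering exon 2 from inside intron 1 was 49.6%, 34.2% and 40.3% in wild type against 43.0%, 35.1% and 32.9% in the knockout. The groups overlapped, at 41.4% ± 7.76 against 37.0% ± 5.31 (SD, n = 3 each), with a two-sided exact permutation p of 0.6 (0.8 adjusted over 4 measures of this intron). Wild-type replicate 2, the smallest library, had the highest share, with a 95% Wilson interval of 41.5% to 57.8% that covers counting error only. As a level, reads from inside the intron were at 3.87 ± 0.375 CPM in wild type against 3.49 ± 0.215 in the knockout (exact permutation p = 0.2, adjusted 0.8).

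**Figure D4:**
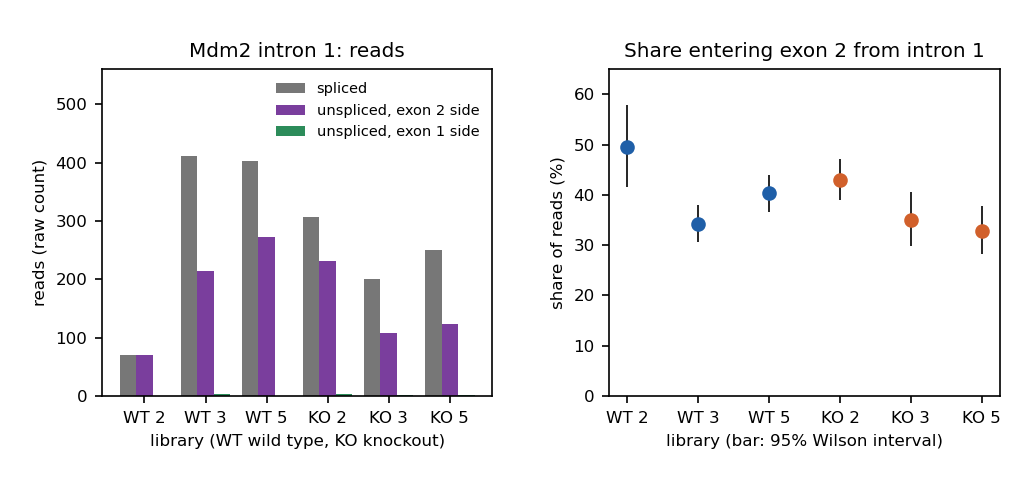
Left, raw counts at intron 1 of Mdm2 in each library: reads spliced across it and unspliced reads at its exon 2 and exon 1 sides. Right, the share of reads entering exon 2 from inside the intron, with 95% Wilson intervals; the shares run from 32.9% to 49.6% and the groups overlap.

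Mdm4 held the other core introns above 10%, a pair of neighbours. At chr1:133003890-133004653 the MSI was 15.5%, 14.1% and 19.0% in wild type against 16.8%, 12% and 18.1% in the knockout, with unspliced reads at both ends and all of the length covered in each library, according to the deposited covered fraction. At chr1:133004721-133009136 it was 20%, 10.5% and 16.2% against 15.8%, 12% and 16%. The highest MSI of Ccng1 was at chr11:40752357-40753807, with a mean of 4.36% in wild type against 3.96% in the knockout. The single listed intron of Cdkn1a (chr17:29098837-29099343) had 9.43%, 7.31% and 4.55% in wild type against 6.15%, 6.75% and 8.96% in the knockout. The highest MSI of Ckap2 was at chr8:22173331-22175000 (5.28% against 6.30%) and that of Gtse1 at chr15:85871581-85873639 (4.77% against 4.61%). In each of these introns the groups overlapped and the edgeR adjusted p was 1.0.

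Pidd1 (chr7:141438113-141447565) stood out in both groups. Pooled over its 15 introns, its MSI was 10.9%, 15.1% and 13.2% in wild type against 13.5%, 16.3% and 13.9% in the knockout, and 9 of its introns were among the 18 above 10% in wild type. Its first listed intron (chr7:141443353-141443968) had 21.9%, 32% and 25.8% in wild type against 26.4%, 32.5% and 29.2% in the knockout. The log2 odds estimate was above 0 in 13 of the 15 introns, none of which passed, and wild-type replicate 2 was the lowest library of the pooled values. These introns share transcripts, so the count is not one of independent values. Such counts were one-sided in other genes too, with 13 of 16 introns above 0 in Epha2 and 0 of 10 in Trp53. The groups were apart at 1 of the Pidd1 introns, with the knockout higher, where 3.9% of all introns as well covered were so.

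**Figure D5:**
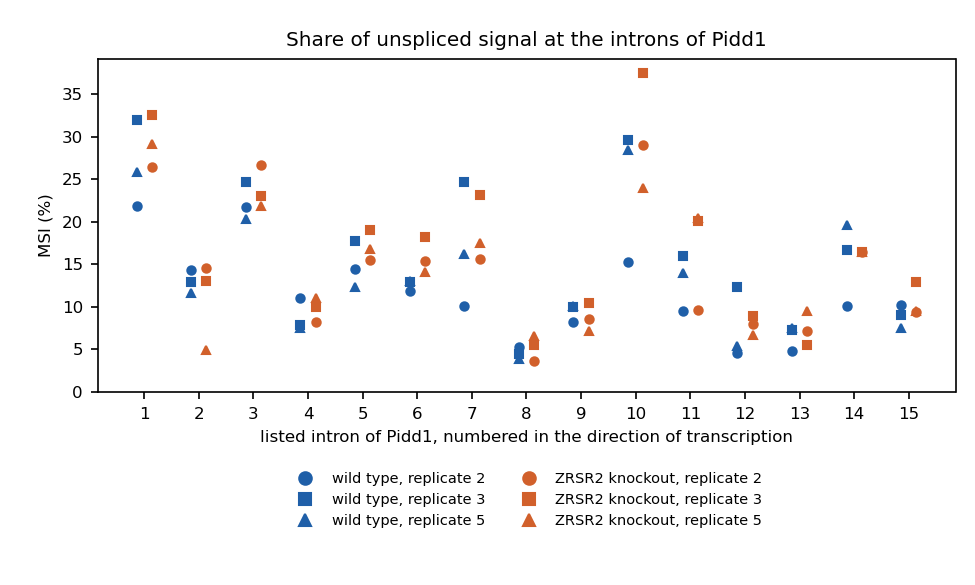
MSI, the percent of unspliced signal, at the 15 listed introns of Pidd1 in the direction of transcription, with 1 point per library. Values run from 3.59% to 37.5%, and the groups overlap at all introns but the sixth.

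Bax had 23.5%, 24.0% and 23.0% in wild type against 23.0%, 28.3% and 25.2% in the knockout at its first listed intron (chr7:45466271-45466741). Its unspliced reads lay mostly on the downstream side, 249 to 1204 per library against 24 to 189 on the upstream side, and the intron overlaps another listed one. The outer of the 3 listed introns of Pmaip1, which spans both inner ones, had a wild-type MSI of 99.4%, where only 3 reads in all 6 libraries were spliced across it and the ends are those of the well-spliced inner introns. The highest intron of each of 3 repair genes was at chr13:96482254-96482457 of Polk (14.3% ± 5.94 against 11% ± 8.58), chr6:91496169-91498029 of Xpc (13.1% ± 6.33 against 16.8% ± 4.78) and chr2:91234951-91236689 of Ddb2 (10.1% ± 3.50 against 8.69% ± 9.79; SD, n = 3 each). The spread within groups was larger than the difference in each of them. Of the other targets, the highest intron of each of 3 genes had 5.37% in Zmat3 (chr3:32341695-32343333), 4.61% in Ephx1 (chr1:180994087-180994627) and 3.84% in Epha2 (chr4:141322124-141322202) in wild type, with 4.41%, 3.45% and 4.14% in the knockout.

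The use of single introns was tested as the spliced reads of an intron against the sum over all other introns of that gene. None of the 211 introns tested in the 32 genes passed in edgeR, where 0.00108% of all introns tested did, and 7 had an unadjusted p under 0.05, where 4.56% of all did. Each of the 7 had an edgeR adjusted p of 0.968. In Apaf1, the intron chr10:90999777-91001009 took 5.71%, 5.37% and 5.20% of the spliced reads of the gene in wild type against 4.08%, 4.01% and 4.11% in the knockout, on 54 to 214 reads, with an unadjusted p of 0.0026. The intron chr10:91019085-91020655 took 5.26%, 5.66% and 5.54% in wild type against 7.43%, 6.82% and 6.5% in the knockout, with an unadjusted p of 0.00621. The groups did not overlap in either of them, but both were named for a small unadjusted p, so this adds no support. The share of all introns with groups apart in use was not computed. In Sesn1, 3 introns had an unadjusted p under 0.05, chr10:41895020-41896022 and chr10:41896205-41898182 with a lower share in the knockout and chr10:41905364-41906335 with a higher one (14.6% against 11.4%). The others were chr7:16309861-16312125 of Bbc3 (28.2% in the knockout against 32.6% in wild type) and chr13:96501672-96504510 of Polk (9.54% against 7.86%).

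Where listed introns are nested, a read spliced across the outer one is also counted for the inner one. In none of 155304 values did an outer intron have more reads than one inside it. The part of an inner intron's reads that also spans the outer one gives the use of alternative junctions. Sesn1 has 2 RefSeq promoters, and of the reads entering the shared exon at the intron chr10:41887595-41894041, those from the upstream start (intron chr10:41811300-41894041) made up 42.1%, 57.7% and 37.3% in wild type against 56.9%, 55.0% and 60.8% in the knockout. The groups overlapped through wild-type replicate 3 (exact permutation p = 0.3). In Mdm4, most reads at the introns chr1:133018884-133019353 and chr1:133019431-133025247 spanned both, past the listed exon between them. At the second of these introns the share was 95.6% ± 4.12 in wild type against 97.7% ± 0.802 in the knockout (SD, n = 3 each, exact permutation p = 0.6). At the first of them the share was 75.0% against 75.2% (exact permutation p = 1.0). Over all libraries, 303 reads spanned only the first of them and 32 only the second. The cause of this mismatch between the sides of the exon was not tested. Of the reads at chr13:96484405-96486807 of Polk, 7.23% ± 2.83 in wild type against 11% ± 1.16 in the knockout spanned the longer chr13:96482491-96486807 (exact permutation p = 0.2). Of those at chr13:96496842-96501518 of Polk, 16.3% ± 8.53 against 15.8% ± 7.27 spanned chr13:96495532-96501518, and 19.9% ± 6.18 against 17.5% ± 5.90 spanned chr13:96496555-96501518 (exact permutation p of 1.0 and 0.8). After adjustment over the 10 pairs with enough reads, each p was 1.0.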

How the data were processed

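RNA of 6 libraries was analysed from 1 intron table each. The authors deposited raw counts per intron (columns Exon, A1 and A2), a covered fraction (CovFrac) and a percent (MSI), on mm10 per the submitters' processing notes. Which aligner, counter, strand setting and intron annotation were used is not given in the sources used here. That A1 and A2 are unspliced and Exon spliced reads follows from the MSI formula, which held to within 0.01.

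Groups and replicate numbers come from the sample titles, which write each number after a letter P without explaining it. The libraries are called replicates here, but P could stand for something else, such as passage. Introns were given to genes by position and strand in RefSeq (GRCm38.p6), of which 28096 genes had a strand in the tables used. Counts were summed per gene, so reads of overlapping or near-identical genes may be split or shared. They were tested over all genes with edgeR 4.0.16 in R 4.3.3 (TMM, filterByExpr, quasi-likelihood test, Benjamini-Hochberg adjusted p under 0.05, 3 against 3). The ratio of unspliced to spliced reads and the use of an intron were tested as interactions with genotype, with a term per sample. Levels shown are scaled by total spliced reads. DESeq2 1.42.0 and limma 3.58.1 served as alternatives, beside other scalings, filters, a replicate block and leaving out each library. Scripts were tested on simulated data. Of 100 simulated 2-fold changes, edgeR called 75 for gene level, 23 for the unspliced to spliced ratio and 55 for use. The changed genes and introns were drawn only from those above a set number of reads. With 19801687 to 63623214 spliced reads counted per library, introns under 20 reads were left out.

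The 32 genes and the lists were chosen with earlier results of these data known. Values of every library are given for Trp53, Mdm2, Cdkn1a, genes whose groups do not overlap or with an unadjusted p under 0.05, and the 2 of highest level per class. Introns named are those with an unadjusted p under 0.05 and the 3 of highest wild-type MSI per class, at most 1 per gene. Of nested junctions with at least 20 reads in every library, those are named whose less used one took at least 5% of the reads. From the lists, genes with an unadjusted p under 0.05 are named, otherwise the 2 of highest level. Other genes were named after their values were seen.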

Additional observations from a re-analysis of the deposited data

How the results depend on the processing

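None of the 32 genes and none of their introns passed under any alternative. The count of all genes called was 3, against 7 with no filter on low counts, 8 with the replicate block, 212 with DESeq2 and 0 to 35 without single libraries (35 without wild-type replicate 3, 22 without knockout replicate 5). For introns by unspliced to spliced ratio it was 26, against 9 with at least 10 unspliced reads, 0 with limma and 7 to 25 without single libraries. For use of an intron it was 1, against 0 with the replicate block and 0 to 1 without single libraries. The log2 change of Zrsr2 was −7.58 to −6.19 without single libraries, and its call was lost when wild-type replicate 2, knockout replicate 3 or wild-type replicate 5 was left out. The median of the 32 genes was 0.008 to 0.155 without single libraries, and 0.036 with scaling by library size alone, which moved the median of all genes to −0.045. Same-numbered libraries did not deviate together (r of 0.063, 0.067 and 0.016 over genes, −0.044, 0.017 and 0.006 over introns), and not every library correlated best with its own number, so the numbers were not taken as pairs; with the replicate block Cdkn1a turned to −0.026, and no call among the 32 genes changed. Rpl5 turned to −0.021 with scaling by library size alone. Without single libraries, class medians ran from −0.178 to 0.226 for arrest and growth, −0.021 to 0.113 for other targets, 0.008 to 0.217 for apoptosis, 0.056 to 0.209 for core and feedback and −0.257 to −0.065 for DNA repair. With the replicate block the medians of arrest and growth and of other targets were 0.001 and 0.017. Without single libraries, log2 changes ran from 0.084 to 0.342 for Trp53, 0.016 to 0.221 for Mdm2, 0.081 to 0.415 for Gtse1, 0.084 to 0.343 for Bax, 0.006 to 0.192 for Ei24, −0.264 to −0.005 for Xpc, −0.25 to −0.024 for Polk, −0.247 to 0.361 for Cdkn1a, −0.006 to 0.182 for Ckap2, −0.021 to 0.168 for Epha2 and −0.004 to 0.039 for Rpl5. Log2 odds of the introns with highest MSI ran from −0.396 to 0.005 for Mdm2, −0.208 to 0.12 for Mdm4, −0.378 to 0.156 for Ccng1, −0.231 to 0.296 for Cdkn1a, −0.132 to 0.614 for Ckap2, −0.177 to 0.089 for Gtse1, −0.019 to 0.541 for Xpc, −1.405 to 0.226 for Ddb2, −0.588 to 0.144 for Ephx1 and −0.166 to 0.379 for Epha2. Differences in pooled MSI ran from −0.083 to 0.197 percentage points over all 32 genes, −0.002 to 0.152 for arrest and growth, −0.056 to 0.564 for apoptosis and −0.266 to 0.33 for DNA repair, which was −0.274 with at least 50 reads. The cause of these turns was not tested, and none of the values that turned passed a threshold. Counting genes only from introns that overlap no other, an alternative chosen after seeing the data, gave a median of 0.081. Depth limits Fas, Gdf15 and the introns with few unspliced reads most. A 2-fold change could be missed in other genes and introns too.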
